A study of Mus musculus with 2 samples.

Results

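Tigit, receptors that share its ligands, and nectin-family proteins were examined in mouse hepatoblasts, the fetal liver progenitors of hepatocytes and bile duct cells. The 7 genes were Tigit, Cd226, Cd96, Pvr, Nectin1, Nectin2 and Nectin3, out of 22180 genes that had a probe set annotated with a single gene symbol. Each of the 7 had 1 such probe set, and all 7 were among the 19261 genes bright enough to be compared. The set was chosen by the deposited signals themselves, in which the difference of Tigit between the Srf and EGFP arrays was already known, so its values are given as a description.

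Hepatoblasts from primary culture of fetal liver had been transduced retrovirally with Srf, which encodes a transcription factor of cytoskeletal and growth-induced genes, or with EGFP as the control. Both cultures were kept on type IV collagen in medium with serum, insulin, dexamethasone, nicotinamide, HGF and EGF. The methods of the study describe its hepatoblasts as a clonal expansion from fetuses of a Nanog-GFP reporter strain. They also state that retrovirally infected cells were selected with puromycin, except where reprogramming efficiency was measured. There was 1 Affymetrix whole-transcript array for Srf and 1 for EGFP, so the spread between cultures is unknown, nothing was tested, and precision is limited by having a single array per group.

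Tigit is an inhibitory receptor of the immunoglobulin superfamily, best known from T cells and natural killer cells. It competes with the activating receptor Cd226 for the ligands Pvr (CD155) and Nectin2 (CD112), while Cd96 is another receptor of Pvr. Nectins and Pvr are themselves adhesion proteins of epithelia, which bind each other across cell contacts, and the tails of nectins are tied to the actin cytoskeleton by afadin.

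The promoter of Tigit is shown because its gene had the largest difference of the set, that of Nectin3 because it was also higher, and that of Acta2, the smooth muscle actin gene and a classical Srf target, for comparison. Windows of 4 of the 7 genes were taken from the RefSeq promoter table of GRCm38.p6. It held none for Pvr and Nectin1, and Cd226 was not looked up. Each sequence runs from 250 bases before to 50 bases after an annotated start, on the minus strand, with capitals on matches to the CArG box, the Srf binding element, that differ from its consensus at no more than 1 base.
Tigit, chr16:43664135-43664434: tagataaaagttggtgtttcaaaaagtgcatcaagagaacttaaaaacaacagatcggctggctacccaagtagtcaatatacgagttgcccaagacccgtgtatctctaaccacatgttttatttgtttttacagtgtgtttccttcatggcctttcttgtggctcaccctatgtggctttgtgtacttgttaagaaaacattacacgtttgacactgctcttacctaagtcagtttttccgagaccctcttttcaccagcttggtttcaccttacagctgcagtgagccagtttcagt
Nectin3, chr16:46496918-46497217: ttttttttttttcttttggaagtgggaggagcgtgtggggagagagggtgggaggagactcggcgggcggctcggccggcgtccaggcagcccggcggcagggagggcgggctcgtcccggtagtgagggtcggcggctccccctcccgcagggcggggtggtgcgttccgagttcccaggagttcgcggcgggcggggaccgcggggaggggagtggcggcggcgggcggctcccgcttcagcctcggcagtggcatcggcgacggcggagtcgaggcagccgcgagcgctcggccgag
Acta2, chr19:34255324-34255623: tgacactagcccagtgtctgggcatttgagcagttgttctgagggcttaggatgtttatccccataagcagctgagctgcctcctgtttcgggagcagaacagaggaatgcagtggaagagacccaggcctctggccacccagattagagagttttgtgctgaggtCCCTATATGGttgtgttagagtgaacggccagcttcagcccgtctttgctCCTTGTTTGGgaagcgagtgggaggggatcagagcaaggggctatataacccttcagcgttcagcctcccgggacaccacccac
The window of Acta2 held 2 such matches, CCCTATATGG and CCTTGTTTGG, whereas the windows of Tigit, Nectin3 and Nectin2 held 0. The window of Cd96 held 1, CTTTTAAAGG. Of 32851 promoter windows of the same length, 21.1% held a match with up to 1 mismatch and 1.63% held an exact one, so a single inexact match is common. The AP-1 motif TGANTCA (in 7.81% of windows) and the Tead motif GGAATG (in 14.7%), both searched on both strands, were also found in none of the windows of Tigit, Nectin3, Nectin2 and Cd96. The gene spans of Tigit and Nectin3 reach 941 and 1568 bases further upstream than the starts used here, so that other start sites were not searched. The absence of these letters from a window says nothing of whether a factor acts on the gene.

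The label of the Srf culture was checked first. Srf itself was at 12.15 on the Srf array and 8.57 on the EGFP array on the log2 scale, and had the largest difference of all genes compared. Whether this signal came from the introduced or the endogenous gene cannot be told from the array. Over the genes compared, the median log2 difference, Srf minus EGFP, was -0.01, with an SD of 0.24. For the 859 genes measured by 2 probe sets that both passed the filter, the log2 differences of the probe sets scattered around their gene's mean with a pooled SD of 0.20. This is the only measure of spread that the data hold, and it compares probe sets read on the same pair of arrays. It therefore holds no variation between arrays, RNA preparations or cultures. None of the 7 genes had a further probe set against which to check its difference.

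Tigit was the 1 receptor of the set past 1.5-fold. It was at 9.24 on the Srf array and 6.34 on the EGFP array, a log2 difference of 2.90, or 7.46-fold higher with Srf. This was the 4th largest positive difference among the 19261 genes, after Srf, Acta2 (3.27) and S100a7a (2.91). The genes next below it were Upk1b (1.96), Akr1c18 (1.95), Thbs1 (1.93), Gkn2 (1.89) and Pkhd1l1 (1.86). On the EGFP array Tigit lay at percentile 52.4 of the gene values, and on the Srf array at percentile 88.1. Its EGFP value may itself hold background, so the fold could be compressed, and the percentile gives no amount of transcript. Of the 1986 genes within 0.25 of its EGFP value, 1.51% were at least 1.5-fold higher with Srf, and after Tigit the highest of them was Pkhd1l1, at 3.64-fold.

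Cd226, the activating rival of Tigit, was at 4.95 on the Srf array and 5.02 on the EGFP array. Cd96 was at 5.07 on the Srf array and 4.98 on the EGFP array. Both lay among the dimmest genes compared, between percentiles 15.5 and 18.9 of the gene values, and just above the limit for comparison (4.92 for Srf and 4.94 for EGFP). Their log2 differences of -0.06 and 0.09 were smaller than the SD between probe sets of a gene. At such signals a difference in transcript level could be compressed, so neither gene can be said to have stayed the same.

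**Figure D1:**
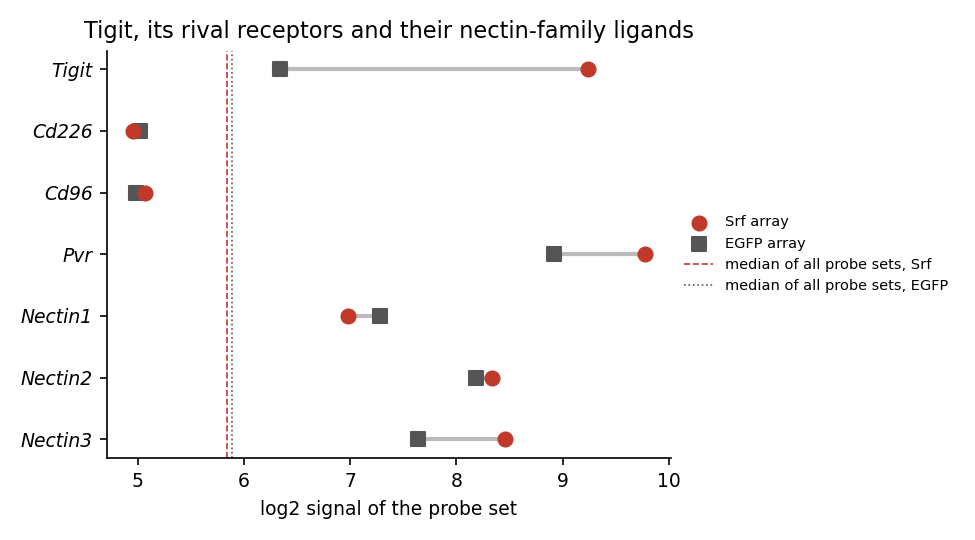
The log2 signal of each of the 7 genes is plotted for the Srf array (circles) and the EGFP array (squares), with the median of all probe sets of each array as a vertical line. Tigit, Pvr and Nectin3 lie further right with Srf, Cd226 and Cd96 lie left of the medians on both arrays, and signals of different probe sets cannot be ranked against each other.

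Of Pvr and the nectins, Pvr and Nectin3 were at least 1.5-fold higher with Srf. Pvr, bound by Tigit, Cd226 and Cd96, was at 9.78 on the Srf array and 8.92 on the EGFP array (1.81-fold higher, 100th from the top). Nectin3, which pairs with other nectins and with Pvr at cell contacts, was at 8.46 on the Srf array and 7.64 on the EGFP array (1.76-fold higher, 120th from the top). Both differences were about 4 times the SD between probe sets of a gene, which holds no spread between arrays or cultures. Nectin2, the other main ligand of Tigit and Cd226, was at 8.34 on the Srf array and 8.18 on the EGFP array, and its log2 difference of 0.16 was within that SD. Nectin1, an adhesion protein that also binds Cd96 in mouse, went the other way, with 6.98 on the Srf array and 7.28 on the EGFP array, a log2 difference of -0.30.

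In total, 3 of the 7 genes were at least 1.5-fold higher with Srf and 0 were at least 1.5-fold lower, where 1.55% of all genes compared were higher and 1.27% were lower. At 2-fold, 1 of the 7 genes, Tigit, was higher and 0 were lower, where 0.343% of all genes were higher and 0.317% were lower. The contrast is the one by which the set was chosen, so nothing is read from that count. The median log2 difference of the 7 genes was 0.16, and 5 of them lay above 0, as did 47.0% of all genes compared. The nectin-family genes with the larger differences were not those of 1 type, since Pvr is a nectin-like protein and Nectin3 a nectin. The other nectins of the set differed by less than 1.5-fold.

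**Figure D2:**
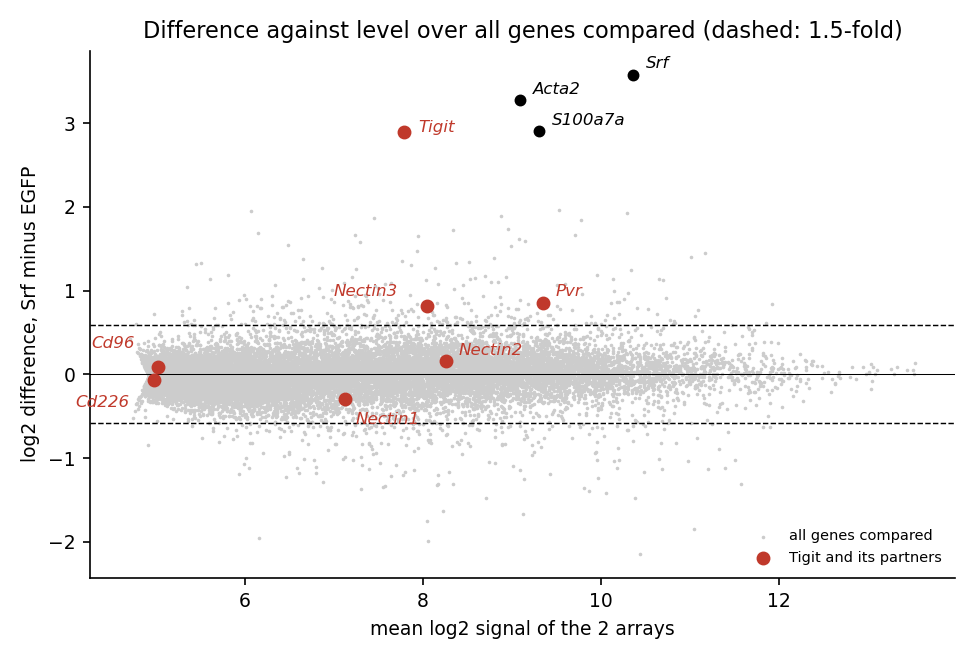
The log2 difference, Srf minus EGFP, is plotted against the mean log2 signal of both arrays for the 19261 genes compared (grey), with the 7 genes in red, Srf, Acta2 and S100a7a in black, and dashed lines at 1.5-fold. Tigit lies at 2.90, apart from the cloud, Pvr and Nectin3 lie just above the upper line at 0.86 and 0.81, and the other 4 lie between the lines.

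Further members of the same protein families were given by lists drawn up with earlier results of these data known. Crtam, the lymphocyte receptor of the nectin-like protein Cadm1, was at 5.30 on the Srf array and 5.27 on the EGFP array. Of the 8 nectins and nectin-like proteins compared, Pvr and Nectin3 were the 2 that passed 1.5-fold upwards, and 0 passed it downwards (1.55% and 1.27% of all genes compared), with a median log2 difference of -0.05. Nectin4 was at 5.76 on the Srf array and 5.88 on the EGFP array, near the array medians of 5.84 and 5.88. Cadm1, an adhesion protein of epithelia, was at 9.25 on the Srf array and 9.36 on the EGFP array, and Cadm4 and Cadm3 had log2 differences of -0.14 and 0.00. Without Pvr and the 3 nectins of the set, the median of the 4 genes left was -0.12.

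Of 15 genes compared whose proteins work with nectins at junctions, 0 passed 1.5-fold in either direction. Over all genes compared, 1.55% were higher and 1.27% lower, so nothing is read from a 0 here or in the lists below. Of the 15, 12 lay above 0, against 47.0% of all genes compared, and the median was 0.09, against -0.01 over all genes. Afdn, which encodes afadin, was at 9.31 on the Srf array and 9.05 on the EGFP array. The highest members were Cdh2, which encodes N-cadherin, at 0.41, and Lmo7, an afadin-binding protein gene, at 0.37. The lowest were Itgb3, an integrin subunit gene, at -0.32, and Pard3, a polarity gene, at -0.15. Cdh1, which encodes E-cadherin, differed by 0.03.

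Of 10 signalling genes that act below Tigit and Cd226 in lymphocytes, 0 passed 1.5-fold up or down (1.55% and 1.27% of all genes compared). The list median was -0.05. Grb2, an adaptor, was at 8.75 on the Srf array and 8.72 on the EGFP array, and Ptpn11, a phosphatase gene, was at 9.83 on the Srf array and 9.67 on the EGFP array. Fyn, a Src-family kinase gene, was the highest member at 0.17. Inpp5d, the lipid phosphatase gene through which Tigit signals in natural killer cells, was dim, with 5.71 on the Srf array and 5.93 on the EGFP array. The lowest members were Arrb2, a beta-arrestin gene, at -0.49, and Ptpn6, a phosphatase gene of blood cells, at -0.41.

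Most other checkpoint receptors were dim, with list medians of 5.24 on the Srf array and 5.24 on the EGFP array, where a difference could be compressed. Of 10 further inhibitory receptors compared, 0 passed 1.5-fold up or down (1.55% and 1.27% of all genes compared). In this list 9 lay below 0 and 1 above, where 47.0% of all genes compared lay above 0, and its median was -0.07. Differences in the list ran from -0.24 for Lair1 and -0.22 for Cd5 to 0.10 for Havcr2. Pdcd1 (PD-1) was at 5.37 on the Srf array and 5.51 on the EGFP array, and Lag3 was at 5.94 on the Srf array and 6.02 on the EGFP array. Ctla4, Cd200r1 and Klrc1 were too dim on both arrays to be compared. Of 6 costimulatory receptors compared, 0 passed 1.5-fold up or down (1.55% and 1.27% of all genes compared). Tnfrsf4 (OX40) was lowest at -0.37 and Tnfrsf9 (4-1BB) highest at 0.09.

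Among ligands of those receptors, 2 of 16 were at least 1.5-fold higher with Srf and 0 were lower (1.55% and 1.27% of all genes compared), with a median of 0.02. Cd80, the ligand of Cd28 and Ctla4, was at 6.93 on the Srf array and 6.05 on the EGFP array (1.84-fold higher). Ceacam1, an adhesion protein of bile canaliculi and a ligand of Havcr2, was at 8.47 on the Srf array and 7.76 on the EGFP array (1.63-fold higher). Icosl and Lgals9 were lowest, at -0.41 and -0.35. Cd274 (PD-L1) was at 5.97 on the Srf array and 6.07 on the EGFP array.

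**Figure D3:**
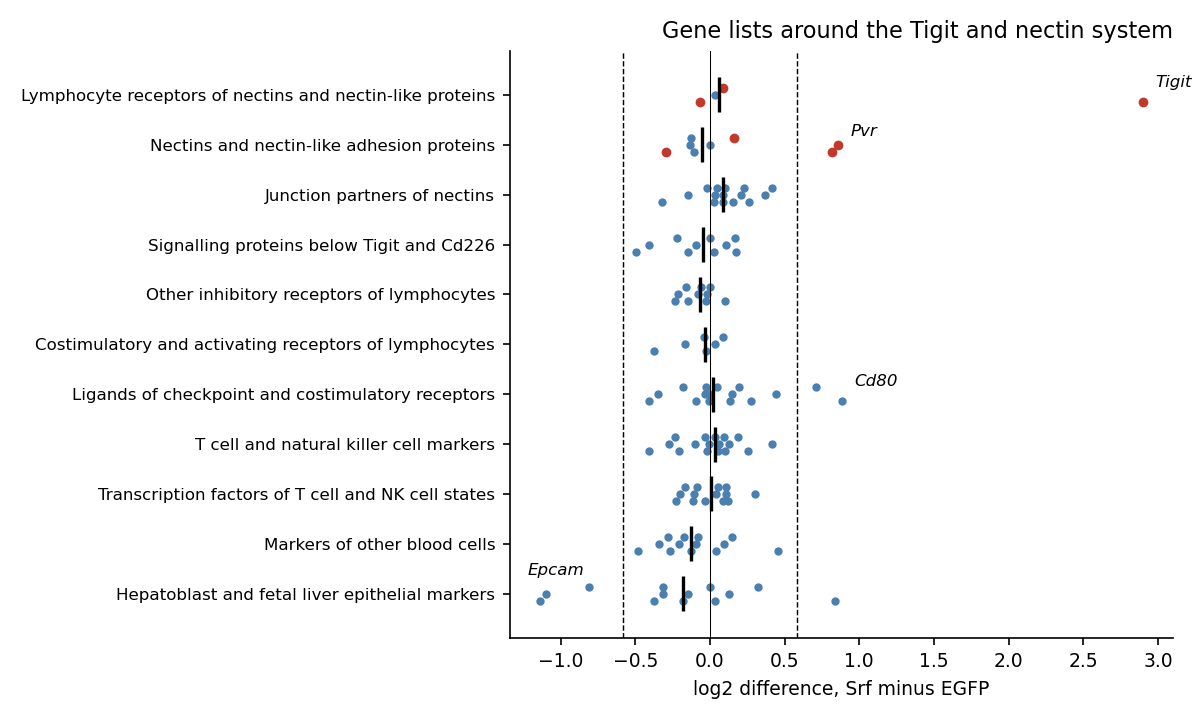
Each point is the log2 difference, Srf minus EGFP, of a gene compared in 1 of 11 lists, with the 7 genes in red, the median of each list as a black bar and dashed lines at 1.5-fold. Tigit is far to the right of every other point, and the medians of the lists lie between -0.18 and 0.09.

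Most markers of the lymphocytes that usually carry Tigit lay below the array medians. Of 24 T cell and natural killer cell markers, 20 were measured, with 6 above the median of the Srf array and 5 above that of the EGFP array, and their log2 signals ran from 4.68 to 6.44 on the Srf array and from 4.75 to 6.42 on the EGFP array. Their signals summed on the linear scale were 969.7 on the Srf array and 972.5 on the EGFP array. At signals this dim a difference could be compressed, so near-equal sums do not show equal lymphocyte RNA. Of the 17 markers compared, 0 passed 1.5-fold up or down (1.55% and 1.27% of all genes compared), and their median difference was 0.03. Cd3e was at 5.40 on the Srf array and 5.81 on the EGFP array, Cd3g at 4.94 on the Srf array and 4.75 on the EGFP array, and Ncr1, a receptor of natural killer cells, at 5.45 on the Srf array and 5.48 on the EGFP array. Lck had no probe set with a single symbol. The largest differences were those of Cd3d (0.41) and Cd3e (-0.41), which encode subunits of 1 complex and went opposite ways. The brightest of these markers on the EGFP array were Lat (6.42), Nkg7 (6.41) and Prf1 (6.12), and Nkg7 differed by 0.03. Ptprc (CD45), the common marker of white blood cells, was under the limit for comparison, at 4.91 on the Srf array and 4.84 on the EGFP array.

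Of 14 transcription factors of T cell and natural killer cell states compared, 0 passed 1.5-fold up or down (1.55% and 1.27% of all genes compared). The list median was 0.00. Bcl6, which many tissues express, was highest at 0.30, and Tox and Foxp3 were lowest at -0.23 and -0.20. Of 13 markers of other blood cells compared, 0 passed 1.5-fold up or down (1.55% and 1.27% of all genes compared), and their median was -0.13. The signals of the 17 measured ran from 4.81 to 8.01 on the Srf array and from 4.81 to 7.56 on the EGFP array. They summed to 924.6 on the Srf array and 914.2 on the EGFP array. Most of these signals too lay below the array medians, where a difference could be compressed. The brightest was Cd68, a lysosomal protein gene that macrophages express strongly, at 8.01 on the Srf array and 7.56 on the EGFP array, followed on the EGFP array by Csf1r (6.21) and Itga2b (6.05). Lyz2, the lysozyme gene of macrophages, was lowest at -0.48. In bulk RNA, fewer cells of a type and less RNA per cell cannot be told apart.

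Of 13 hepatoblast markers measured, 13 lay above the median of all probe sets on both arrays. Their medians were 9.17 on the Srf array and 9.48 on the EGFP array. Krt8 and Krt18, keratins of simple epithelia, were at 12.42 and 11.85 on the Srf array and at 12.29 and 11.53 on the EGFP array. Dlk1, a surface marker of hepatoblasts, was only just above, at 6.04 on the Srf array and 6.18 on the EGFP array. Signals of different probe sets cannot be ranked against each other, so a place above or below the array median gives no amount of transcript. At 1.5-fold, 1 of the 13 was higher, Afp, the fetal serum protein gene (0.84), and 3 were lower, Epcam (-1.14), Apoa1 (-1.10) and Ttr (-0.81), where 1.55% of all genes compared were higher and 1.27% lower.

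**Figure D4:**
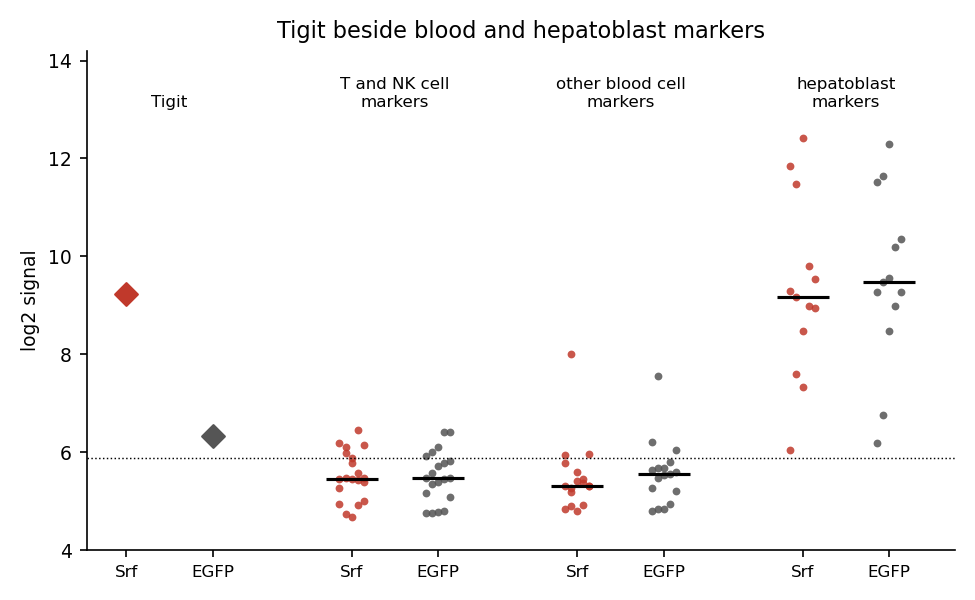
Log2 signals on the Srf array (red) and the EGFP array (grey) are plotted for Tigit (diamonds) and for each measured gene of 3 marker lists, with list medians as black bars and the EGFP array median as a dotted line. The medians of the lymphocyte markers are 5.46 with Srf and 5.48 with EGFP, while the probe set of Tigit differs by 2.90 between the arrays, and heights of different probe sets are not to be ranked.

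Of the 7 genes, 3 lie on chromosome 16 (Tigit, Cd96 and Nectin3) and 2 on chromosome 7 (Pvr and Nectin2). Flanking Tigit, 10 measured genes were taken, 5 on each side in RefSeq order, and their median difference was 0.06. Of the 10, 1 was at least 1.5-fold higher with Srf and 0 were lower (1.55% and 1.27% of all genes compared). That gene was Qtrt2, which encodes a subunit of a tRNA-modifying enzyme, at 9.46 on the Srf array and 8.68 on the EGFP array (1.72-fold higher). Between Tigit and Qtrt2 lies Drd3, a dopamine receptor gene, with a difference of -0.13. Zbtb20, a zinc finger gene whose RefSeq span overlaps that of Tigit, was at 8.49 on the Srf array and 8.14 on the EGFP array. Beyond Qtrt2, Ccdc191 and Zdhhc23 were both at 0.31 and Gramd1c at -0.26. Drd3 and, on the other side, 4932412D23Rik, Gm19522, Gm9968 and Gm15713 lay below the medians of both arrays, where a difference could be compressed. The median of 0.06 includes these dim genes, and Zbtb20 was higher by 0.35.

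Genes of chromosome 16 as a whole lay higher with Srf than those of other chromosomes, a comparison made after the values had been seen and given without a test. Leaving out the 7 genes, 4.41% of its 589 genes compared were at least 1.5-fold higher, against 0.849% to 2.19% on the other 18 autosomes and X, and their median difference was 0.04, against -0.04 to 0.01. When limited to genes that reached the median of either array on that array, 6.49% of 385 were higher, against 1.25% to 3.13%, and the median was 0.10, against -0.04 to 0.05. The excess was not confined to the surroundings of Tigit, since the medians of 4 consecutive stretches of the chromosome, each with 96 or 97 of these genes, were 0.10, 0.09, 0.11 and 0.11. The part of this excess in the differences of Tigit and Nectin3 was not tested. With 1 culture in each group, a difference between the cultures along chromosome 16 that does not depend on Srf and an effect of Srf cannot be told apart.

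Cd96 and Nectin3 are separated by 3 RefSeq genes, none of which could be compared, and the low signal of Cd96 does not allow its difference to be set against that of Nectin3. On chromosome 7, Pvr was higher by 0.86 and Nectin2 by 0.16. Of the 6 genes compared between them, 0 passed 1.5-fold up or down (1.55% and 1.27% of all genes compared). Their differences ran from -0.30 to 0.01.

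**Figure D5:**
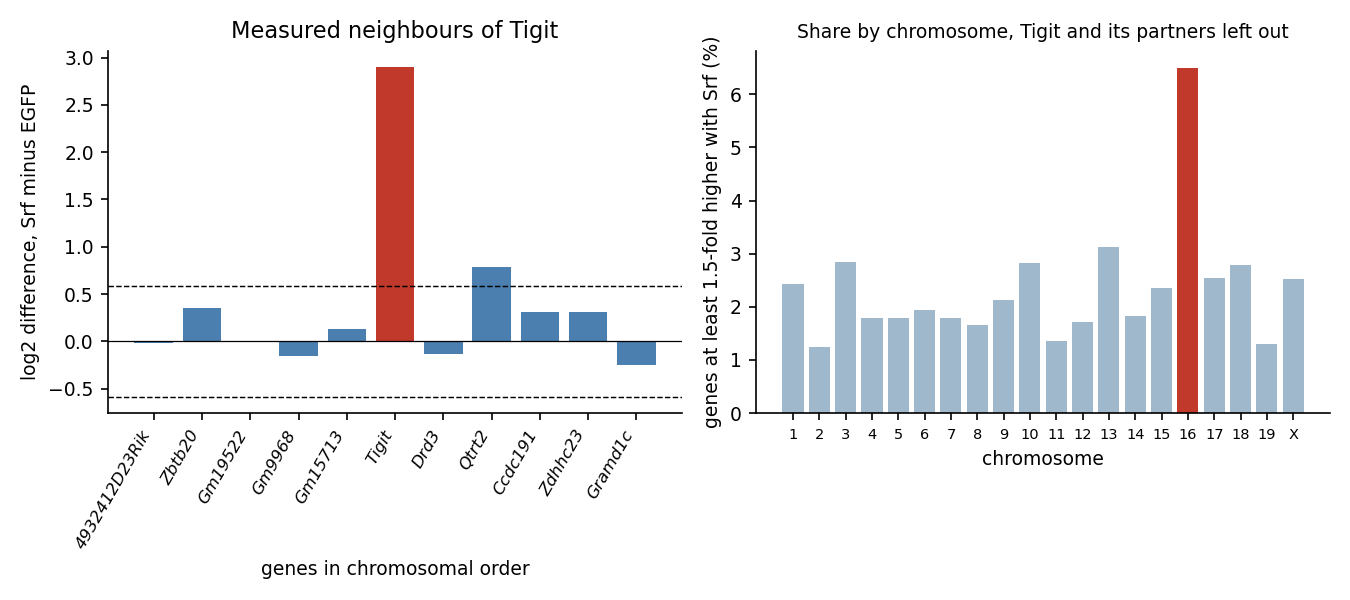
The left panel gives the log2 difference, Srf minus EGFP, of Tigit (red) and the 5 measured genes on each side in chromosomal order, with dashed lines at 1.5-fold. The right panel gives, for genes at or above the array median and without Tigit and its partners, the percentage at least 1.5-fold higher with Srf on each chromosome, which is 6.49% on chromosome 16 (red) and at most 3.13% elsewhere.

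The genes whose pair of values came nearest to that of Tigit, by Euclidean distance over the 2 arrays, were all at least 0.87 log2 units away. They were Pkhd1l1 (8.38 with Srf and 6.52 with EGFP), Vgll3, a cofactor gene of Tead factors (8.77 with Srf and 7.11 with EGFP), Igsf11, an immunoglobulin-superfamily adhesion gene (8.67 with Srf and 7.20 with EGFP), Jam2, a junctional adhesion gene (8.44 with Srf and 7.08 with EGFP), Krt80 and Prss23. Vgll3, Igsf11 and Jam2 lie on chromosome 16 too. The genes nearest to Pvr were Ptprb (9.78 with Srf and 8.97 with EGFP), Ajuba and Abcc4, and those nearest to Nectin3 were Gcnt3, Pcdh7 and Ceacam1, each at least 1.5-fold higher with Srf. Nearest to Nectin2 were Ammecr1, Hivep1 and Fxr2, and to Nectin1 Kcnk6, Mtmr7 and Vamp5. The nearest to Cd226 and Cd96 included genes of other tissues, such as Spaca1 of sperm (4.95 with Srf and 5.02 with EGFP). With 2 arrays, likeness means only a similar level and a similar difference.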

How the data were processed

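Total RNA of both cultures was converted to cDNA by a whole-transcript protocol (the kit named in the labels differs from that in the methods) and hybridised to Affymetrix mouse gene arrays. The authors deposited 1 value per probe set, taken here as a log2 signal. Their log base, which no source states, was read from their range of 4.28 to 13.63, so every fold rests on that reading. The methods name GeneSpring, exclusion of low signals and percentile shifts, without saying for which arrays. For probe set summarisation, no method was given in the sources used here.

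Samples were grouped by their titles, 1 array each. Probe sets with exactly 1 gene symbol (23521 of 34351) were averaged by gene, and all 7 genes matched RefSeq by Entrez identifier. A gene was compared if it reached the 20th percentile of all probe sets on either array. The log2 difference was Srf minus EGFP, with no pseudocount and no test, and 1.5-fold is the threshold the study uses for these cells. The genes and lists were chosen with earlier results of these data known. Named genes were the 7 genes, every list gene past 1.5-fold, up to 2 at each end of a list, the brightest and defining markers, the nearest genes in value, in rank and on the chromosome, and Srf. Others were chosen after their values were seen. Protein and probe sequences were not used here. Counting was tested on simulated data from the Srf and EGFP arrays over 19261 genes. There, 99 of 100 genes raised 2-fold and 98 of 100 lowered 2-fold passed 1.5-fold. The shift was added to shuffled real differences within 1.5-fold, so this checks the counting and says nothing of the spread between cultures. Python 3.11.15, pandas 2.3.3 and statsmodels 0.14.6 were used. Alternatives were scaling by median, 75th percentile, quantiles or lowess (span 0.3), other filters, a 2-fold threshold and other probe set rules.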

Additional observations from a re-analysis of the deposited data

How the results depend on the processing

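Under the 4 other scalings, the log2 difference of Tigit ran from 2.88 to 2.94. Pvr ran from 0.82 to 0.90 and Nectin3 from 0.79 to 0.85, and each of these genes stayed past 1.5-fold. Nectin2 (0.13 to 0.20), Cd96 (0.07 to 0.12), Cd226 (-0.08 to -0.03) and Nectin1 (-0.31 to -0.26) kept their direction and stayed under it. Both other probe set rules left the values of the 7 genes as reported. As each has 1 probe set, the rule that takes a gene's brightest probe set could give no other value. At 2-fold, 1 of the 7 genes, Tigit, was still higher, with 66 genes higher and 61 lower over all genes. With only genes at or above the array median, the list of lymphocyte receptors held Tigit alone, and its median became 2.90. Chosen after the values were seen, subtraction of the 1st percentile of each array on the linear scale gave 3.27 for Tigit (9.68-fold). Subtraction of each chromosome's median, a constant too small to change a call, was chosen then too. Of 180 values under alternatives, 175 stayed within the SD between probe sets of a gene or within 1.5 times the count. These 175 include the values of the 7 genes that the probe set rules left unchanged. No paired analysis was possible because each group had 1 array. Signal over background limits Cd226, Cd96 and the blood markers, where a difference could be hidden. It also limits the fold of Tigit, whose EGFP value of 6.34 was not far above the array median of 5.88.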

Other observations

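Of 385 genes of chromosome 16 that reached the median of at least 1 array, 25 were at least 1.5-fold higher with Srf and 4 were lower. After Upk1b, Vgll3, Igsf11 and Jam2 they included Tmem45a2, at 6.17 on the Srf array and 4.84 on the EGFP array, so that it entered only through the array where it was high, as did B3gnt5 and Ildr1. They also included Tfrc, the transferrin receptor gene, at 10.27 on the Srf array and 9.30 on the EGFP array, Runx1, a transcription factor gene of blood and epithelia, at 8.89 on the Srf array and 8.03 on the EGFP array, and Snai2, a repressor of epithelial genes, at 9.30 on the Srf array and 8.61 on the EGFP array. Cd80 lies there too. Of the 385 genes 68.3% lay above 0, against 41.9% to 58.9% on the other autosomes and X. At the other end, chromosome 19 had the lowest median (-0.04), with 4.12% of 461 genes at least 1.5-fold lower and 1.30% higher. The next largest shares lower were 3.23% on chromosome 6 and 2.71% on chromosome 13. Of the 13243 genes of any chromosome that passed this filter, 287 were at least 1.5-fold higher and 243 lower. The genes were grouped by chromosome after values had been seen, and no test was made.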
